A study of Mus musculus with 16 samples.

Results

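The genes described here handle RNA inside the nucleus, and they number 9 of the 16882 genes listed in both tables. They were taken by symbol: the nuclear-retained RNAs Neat1 and Malat1, the CLK kinase genes Clk1 and Clk4, the genes Rsrp1, Luc7l3 and Pnisr of arginine-serine rich nuclear proteins, and the export factor genes Nxf1 and Nxt1. All 9 were found in each table. The members were chosen by the genotype fold changes and p-values of these same tables, as well as by function, so those values are given as a description and test nothing about the group.

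The mice were male C57BL/6 animals, 10 weeks of age and kept at room temperature, and they carried either the uORF-TAA allele of Ppargc1a on both chromosomes or the wild-type allele as littermates. Ppargc1a encodes the coactivator PGC-1alpha, and a uORF (upstream open reading frame) precedes its main coding frame. Quadriceps muscle and brown adipose tissue were sequenced as stranded mRNA libraries, with 4 uORF-TAA and 4 wild-type libraries in each tissue. Each table gives 1 mean normalized count per gene over the 8 libraries of its tissue together with the comparison of genotypes, and values per library were not analysed here.

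Transcripts of most genes leave the nucleus once they are spliced and bound by an export receptor. NXF1 is that receptor for bulk mRNA, and it works as a dimer with the small protein NXT1. Neat1 and Malat1 are long noncoding RNAs that stay behind. Neat1 builds paraspeckles, and Malat1 gathers in nuclear speckles, where splicing factors are stored. CLK kinases phosphorylate the SR proteins of these speckles and so control their release and activity, and transcripts of CLK genes themselves are known to be held in the nucleus with an intron until they are needed. LUC7L3 is related to a U1 snRNP protein of yeast that helps to choose 5' splice sites, and PNISR is a speckle protein. The role of RSRP1 is less well known.

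Both noncoding RNAs can be caught by oligo-dT although Malat1 and the long form of Neat1 do not end in an added poly(A) tail, and the stretches below are shown for that reason. They come from GENCODE M21 transcripts of the GRCm38 build. Capitals mark the encoded run of 12 A at positions 6674 to 6685 of the 6983 bases of the longest Malat1 transcript, and the polyadenylation signal AATAAA at positions 2985 to 2990 of the 3004 bases of the short Neat1 form.
Malat1, positions 6634 to 6705: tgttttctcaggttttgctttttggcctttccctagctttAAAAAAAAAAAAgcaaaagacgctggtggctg
Neat1, positions 2945 to 3004: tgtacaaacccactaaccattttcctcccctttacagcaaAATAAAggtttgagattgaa
The Malat1 run was the only one of at least 12 A in that transcript. Both genes are near neighbours on chromosome 19, with 1 annotated small RNA gene between them.

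Levels were described first, as the grouping did not use them directly. A small p-value is harder to reach at a low count, so the levels of the members may not be independent of the choice. Each mean count was divided by the table's summed means and scaled to a total of 1000000, written ppm, and the tables were normalized separately, so no test was made between tissues and the spread of the levels between mice is not known. Neat1 stood at 2452 ppm in brown fat and at 661 ppm in quadriceps, a ratio of 3.71. By mean count, not divided by length, it ranked 37 in brown fat and 141 in quadriceps. Per kilobase of its 20771 annotated exon bases its ranks were 395 and 890. Malat1 stood at 2119 ppm in brown fat and at 2264 ppm in quadriceps, a ratio of 0.936. Quadriceps counts were dominated by few genes, with the fast myosin gene Myh4 alone taking 10.2% of the summed means, and the median level, over the 9282 genes reaching a mean of 50 in each table, was 38.4 ppm in brown fat and 20.9 ppm in quadriceps, a log2 ratio of 0.88. With each level divided by the median level of its tissue, the ratio of Neat1 was 2.01 and that of Malat1 was 0.508. Neat1 was thus the higher in brown fat and Malat1 the lower in brown fat on both scales, although Malat1 differed little on the first.

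The other members were compared on the same footing. Rsrp1 had 511 ppm in brown fat and 255 ppm in quadriceps. Clk1 had 230 ppm in brown fat and 104 ppm in quadriceps, a ratio of 2.22. Its relative Clk4 had 104 ppm in brown fat and 85.5 ppm in quadriceps. Nxf1 had a ratio of 2.42 and its partner gene Nxt1 one of 2.13, and against the median level the ratios were 1.31 and 1.16. Luc7l3 had a ratio of 1.14 and Pnisr 0.891, and against the median level they were 0.621 and 0.484. The direction of Clk4 and Luc7l3 between tissues therefore depended on the scale.

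Levels of the members were set side by side only per kilobase of annotated exon. The exon bases of all annotated transcripts of a gene were joined, which gave 8132 for Clk1 and 10187 for Pnisr. Their longest transcripts have 4865 and 4545 bases, so such values depend on which transcripts gave the reads. On the per-kilobase scale Malat1 led the group with 304 ppm per kilobase in brown fat and 324 in quadriceps, rank 158 of 17816 genes and rank 69 of 17366 genes. Rsrp1 had 153 ppm per kilobase in brown fat and 76.2 in quadriceps. Neat1 had 118 in brown fat and 31.8 in quadriceps ppm per kilobase if its reads were spread over all 20771 exon bases, and 816 and 220 if they all came from the short form, so its place above or below Malat1 in brown fat and Rsrp1 in either tissue is not fixed by these tables. Clk1, Clk4, Luc7l3, Pnisr and Nxf1 lay between 10.7 and 28.3 in brown fat and between 9.47 and 14.7 in quadriceps. Nxt1 was the lowest with 4.80 in brown fat and 2.25 in quadriceps. At its mean normalized counts of 68.7 in brown fat and 52.9 in quadriceps, counting error alone is 12.1% and 13.7% for a library at the mean, against 3.37% or less for each other member.

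**Figure D1:**
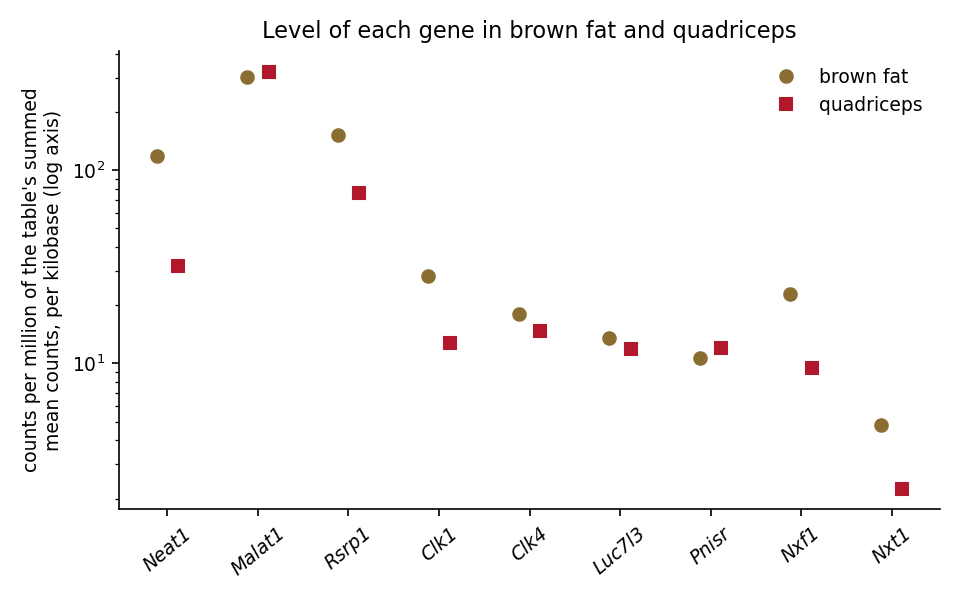
Level of each of the 9 genes in brown fat (circles, left of each pair) and quadriceps (squares), as counts per 1000000 of the table's summed mean counts per kilobase of annotated exon, on a log axis. Each point is the authors' mean over 8 libraries, so no error is drawn; Malat1 is highest in quadriceps at 324 and Nxt1 lowest at 2.25.

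Genotype fold changes are log2 values with uORF-TAA as numerator and wild type as denominator. The header of neither table names the numerator, and the genotype named first in each table was taken as the numerator, so the signs of brown fat were turned. If that reading is wrong for one tissue, every direction given for that tissue turns over. The deposited values also behave as shrunken towards 0, so the changes may be larger than printed. For the mutated gene, Ppargc1a, the authors' deposited table listed log2 values of 0.06 ± 0.13 (SE) for quadriceps and 0.0016 ± 0.11 (SE) for brown fat. The estimated depth was 11.4 to 31.8 M counts (M, mega) per library in quadriceps and 11.0 to 17.8 M in brown fat.

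In quadriceps 8 of the 9 genes were lower in uORF-TAA by the sign of the fold change, as were 48.3% of all genes, and in brown fat also 8, as were 48.8% of all genes. No member reached the 0.05 threshold after adjustment by DESeq2, which 0 of 17521 genes (0%) reached in quadriceps and 8 of 9272 (0.0863%) in brown fat. Without adjustment, at p under 0.05, 5 members were lower in uORF-TAA quadriceps, where 1.06% of all genes were, and 0 were higher, where 0.942% of all genes were. The 5 were Neat1, Malat1, Rsrp1, Clk1 and Nxf1. In the other tissue, brown fat, 3 members were lower at that level, where 1.15% of all genes were, namely Neat1, Rsrp1 and Clk4, and 0 were higher, where 0.918% were. Since the contrast chose the members, nothing is read from these counts. The median log2 fold change of the members was -0.28 in quadriceps, beside 0.0024 over all genes tested, and -0.15 in brown fat, beside 0.0015.

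Among the nuclear-retained RNAs, Neat1 had close values in the 2 tissues. With a mean normalized count of 13912 in quadriceps, its log2 fold change there was -0.33 ± 0.13 (SE) in the authors' deposited table, with an unadjusted p of 0.00908 and an adjusted p of 1.00 by DESeq2. The brown fat entry of the authors' deposited table was -0.28 ± 0.12 (SE), with a mean count of 31445 and an unadjusted p of 0.0194. These correspond to uORF-TAA levels of 0.797 times wild type in quadriceps and 0.822 times wild type in brown fat. Malat1 had -0.28 ± 0.11 (SE) in quadriceps (unadjusted p = 0.00878, by the deposited DESeq2 test) and -0.13 ± 0.11 (SE) in brown fat (unadjusted p = 0.247) in the authors' deposited table. The 95% interval of Malat1 was -0.49 to -0.07 in quadriceps and -0.35 to 0.09 in brown fat, and the second includes both 0 and the quadriceps value. With mean counts this high, counting error was 0.848% or less for a library at the mean. The standard errors of Neat1 lay at 93.1% and 95.3% of the largest in the quadriceps and brown fat tables, where shrinkage caps them. With the shrinkage undone approximately, Neat1 in brown fat stood at -0.43.

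Of the genes for RS-domain proteins, Rsrp1 carried the lowest deposited values of the group in both tissues. With the shrinkage undone approximately, Neat1 was the lower in quadriceps at -0.48, against -0.46 for Rsrp1, and in brown fat each stood at -0.435. The authors' deposited table gave it -0.38 ± 0.10 (SE) in quadriceps, with an unadjusted p of 3.08e-04 and an adjusted p of 0.490 by DESeq2, rank 11 of 17521 genes by p. For brown fat the authors' deposited table listed -0.34 ± 0.11 (SE), with an unadjusted p of 0.00141 and an adjusted p of 0.466, rank 32 of 17973. The uORF-TAA level was 0.771 times wild type in quadriceps and 0.791 times wild type in brown fat. Luc7l3 had -0.14 ± 0.12 (SE) in quadriceps and -0.15 ± 0.09 (SE) in brown fat in the authors' deposited table, and both 95% intervals include 0. Pnisr was much the same, with -0.16 ± 0.12 (SE) and -0.17 ± 0.09 (SE) in those tissues in the authors' deposited table, and in brown fat its interval ended at 0.0020.

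The 2 CLK kinase genes differed in which tissue had the lower value. For Clk1 the authors' deposited table gave -0.28 ± 0.13 (SE) in quadriceps, with an unadjusted p of 0.0335, and -0.06 ± 0.12 (SE) in brown fat, with one of 0.630. With the shrinkage undone approximately, these Clk1 values were -0.44 and -0.09. Clk4 had -0.13 ± 0.12 (SE) in quadriceps (unadjusted p = 0.309, deposited DESeq2 test) and -0.20 ± 0.10 (SE) in brown fat (unadjusted p = 0.0333) in the authors' deposited table. The intervals of each gene overlapped between tissues, and no test was made of the difference, as it would reuse the values that chose the genes. Clk1 and Clk4 shared no stretch of 75 bases, the read length, in their annotated transcripts, so no exact read of that length would match both. The relatives outside the group, Clk2 and Clk3, had -0.09 and -0.04 in quadriceps and -0.0089 and -0.12 in brown fat in the authors' deposited table, with no unadjusted p under 0.05.

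The export factor genes had values on opposite sides of 0 in each tissue. Among these values, only that of Nxf1 in quadriceps had a 95% interval without 0. With a mean normalized count of 882 in quadriceps, Nxf1 had -0.29 ± 0.08 (SE) there in the authors' deposited table, with an unadjusted p of 2.57e-04 and an adjusted p of 0.490 by DESeq2, rank 9 of 17521 by p. Its standard error there was the smallest of the 9 genes. The brown fat entry in the authors' deposited table was 0.05 ± 0.10 (SE), with an unadjusted p of 0.622 and a 95% interval from -0.15 to 0.25. The quadriceps interval ran from -0.45 to -0.14. Nxt1 had 0.07 ± 0.13 (SE) in quadriceps and -0.12 ± 0.13 (SE) in brown fat in the authors' deposited table, each close to the largest standard error that its table holds, and with the shrinkage undone approximately its values were 0.13 and -0.20. The brown fat table gives Nxt1 no adjusted p. Its paralog Nxt2 had 0.04 and 0.03 in the authors' deposited table for quadriceps and brown fat.

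**Figure D2:**
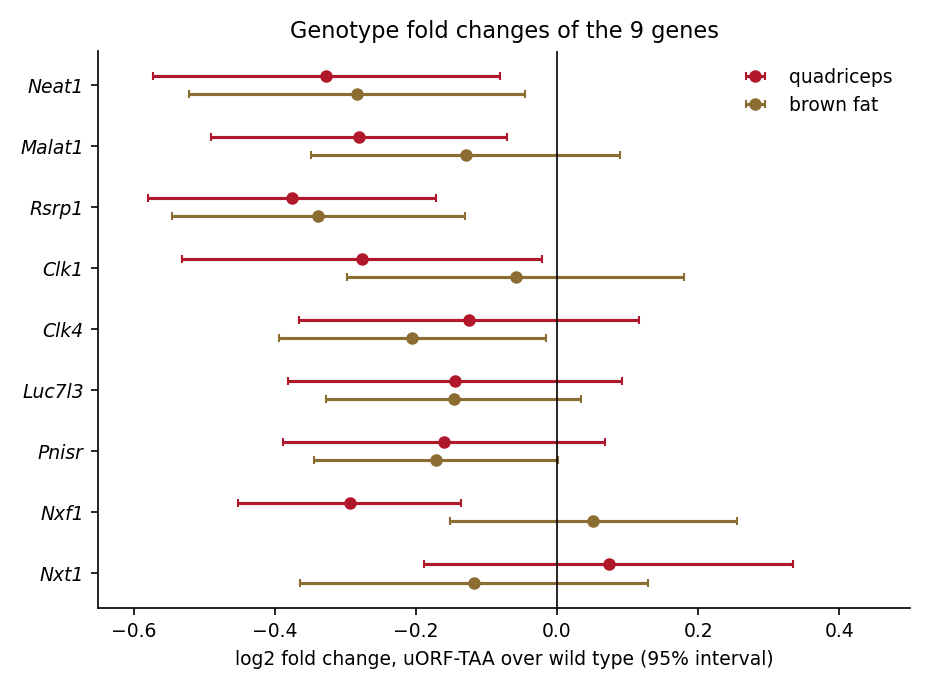
Log2 fold change of uORF-TAA over wild type for each of the 9 genes in quadriceps (upper point of each pair) and brown fat (lower point), from the authors' deposited table. Bars are 95% intervals from the deposited standard errors. Rsrp1 and Neat1 have intervals below 0 in both tissues, Malat1, Clk1 and Nxf1 in quadriceps only, and Clk4 in brown fat only. The value of Nxf1 is -0.29 in quadriceps, against 0.05 in brown fat.

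**Figure D3:**
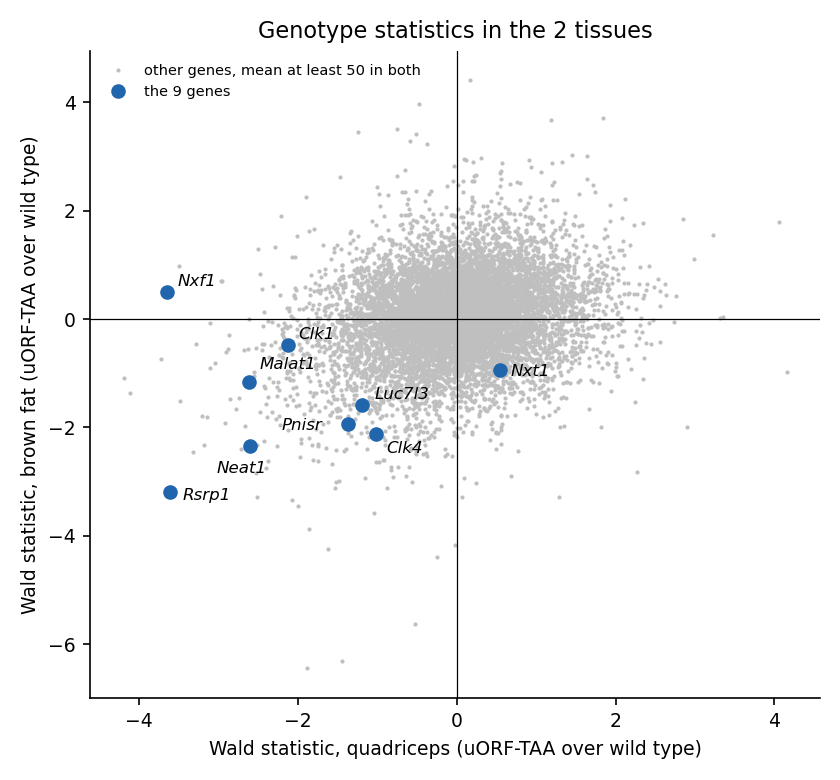
Wald statistics of uORF-TAA over wild type in quadriceps (horizontal) and brown fat (vertical) for the 9 genes (large points) and the others that reached a mean of 50 in each table (small points). Rsrp1 lies at -3.61 and -3.19, Nxf1 at -3.66 and 0.49, and Nxt1 close to the centre at 0.55 and -0.94.

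The genes closest to Rsrp1 by the distance between pairs of Wald statistics, among 9281 others that reached a mean of 50 in each table, were Lrrc8c, Cd200, Hif3a, Myzap and Map3k6, at distances of 0.791 to 1.20. This likeness rests on only 2 comparisons. Lrrc8c had -0.40 in quadriceps and -0.30 in brown fat, and Map3k6 had -0.36 and -0.27, in the authors' deposited table.

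The wider machinery was read from 12 lists of splicing, nuclear body and export genes, with 135 measured genes in quadriceps and 137 in brown fat. No list gene reached the 0.05 threshold after adjustment by DESeq2 in either tissue. At an unadjusted p under 0.05, 4 list genes were lower and 0 higher in uORF-TAA quadriceps, that is 2.96% lower beside 1.06% of all genes. In brown fat 1 was lower and 0 higher, that is 0.730% lower beside 1.15% of all genes. Below 0 were 75.6% of the list genes in quadriceps, where 48.3% of all genes were, and 60.6% in brown fat, where 48.8% of all genes were. In each tissue 127 of the list genes reached a mean of 50. Of the 16882 genes listed for both tissues, 9282 reached it in both. The shares are therefore not matched for level.

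Nuclear speckle protein genes leaned lowest in quadriceps, with 20 of 22 below 0 and a median of -0.12, and 1 below an unadjusted p of 0.05. That one was Ccnl2, a cyclin of splicing-related kinases, with -0.22 ± 0.10 (SE) in the authors' deposited table. In brown fat 16 of the 22 were below 0 with a median of -0.05, and Rsrc2 had -0.17 ± 0.08 (SE) in the authors' deposited table. Among the LUC7 and U1 snRNP genes 7 of 11 were below 0 in quadriceps and 9 of 11 in brown fat. Snrnp70, which encodes the U1 70K protein, had -0.30 ± 0.10 (SE) in quadriceps in the authors' deposited table (unadjusted p = 0.00229, DESeq2) and -0.07 in brown fat. Luc7l, a relative of Luc7l3, had -0.25 ± 0.10 (SE) and -0.12 ± 0.10 (SE) in those tissues in the authors' deposited table, while Luc7l2 had -0.10 and -0.05.

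Paraspeckle protein genes had a median of -0.08 in quadriceps, with 15 of 18 below 0, and of -0.02 in brown fat, with 11 of 18 below 0. Only Hnrnpm among them had an unadjusted p under 0.05, at -0.21 ± 0.10 (SE) in quadriceps in the authors' deposited table. SR protein genes, the substrates of the CLK kinases, had 11 of 13 below 0 in quadriceps and 5 of 13 in brown fat, with medians of -0.07 and 0.03, and SR protein kinase genes had medians of -0.02 and -0.04. The 12 other long noncoding RNAs, which included Meg3 and Tug1, had 8 below 0 in quadriceps and 9 in brown fat and none with an unadjusted p under 0.05. Among partners of NXF1, TREX and cap-binding adaptor genes had 14 of 18 below 0 in quadriceps and 7 of 18 in brown fat, with medians of -0.02 and 0.0056 and a range of -0.15 to 0.11 in quadriceps. TREX-2 genes had 4 of 6 below 0 in quadriceps and 1 of 6 in brown fat, with medians of -0.03 and 0.03. Pore factors of mRNA export had 7 of 11 below 0 in each tissue, with medians of -0.03 and -0.01, and ran from -0.14 to 0.13 in quadriceps. Genes of nuclear RNA decay had medians of -0.08 and -0.04, and the m6A genes -0.02 in both tissues. No gene of these last 5 lists, or of the NXF and NXT paralogs, had an unadjusted p under 0.05 in either tissue.

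**Figure D4:**
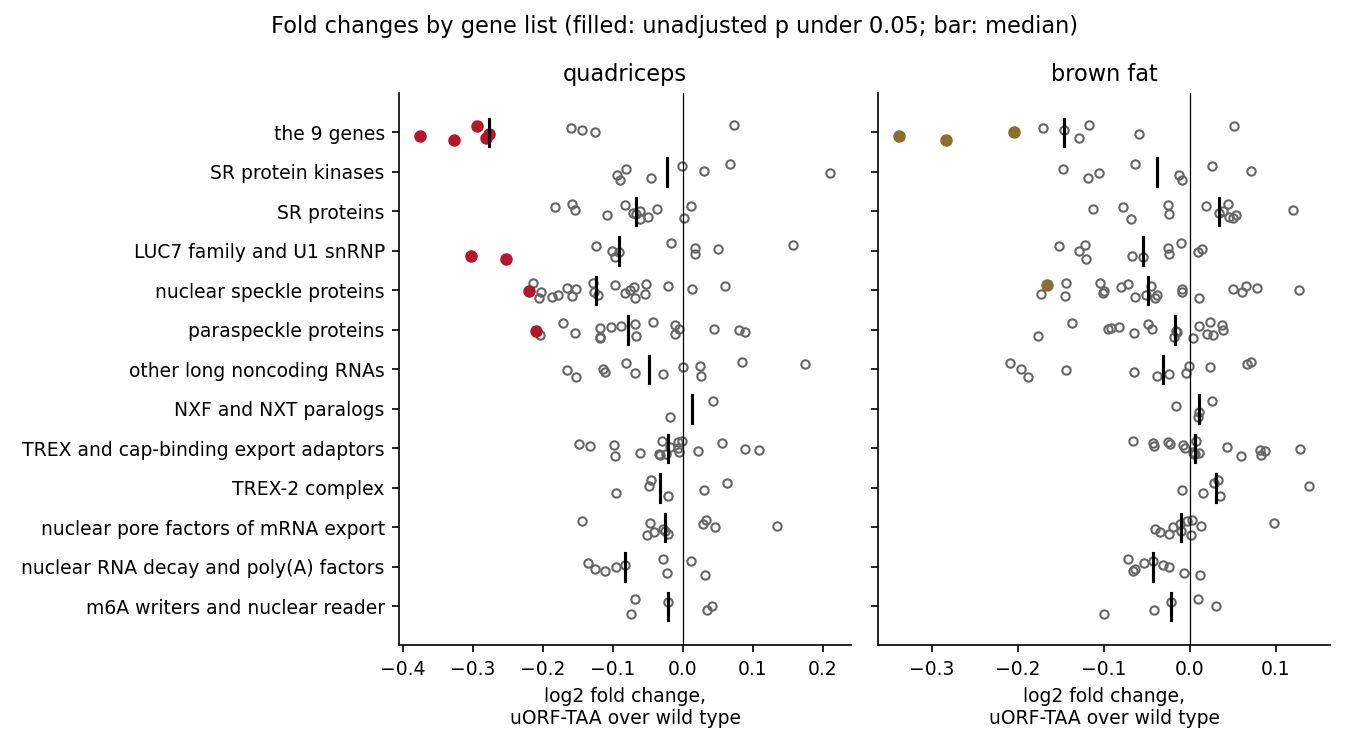
Log2 fold change of uORF-TAA over wild type for the 9 genes (top row) and each of the 12 lists, in quadriceps (left) and brown fat (right), from the authors' deposited table. Each circle is a gene, filled where its unadjusted p is under 0.05, and the bar is the median. The 9 genes, which were chosen partly by these values, have medians of -0.28 and -0.15, and the lowest list median is -0.12.

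Markers of other cell types were read beside these values. In bulk tissue, fewer cells of a type and less RNA per cell cannot be told apart. Of 5 mural cell markers 3 were lower in uORF-TAA quadriceps at an unadjusted p under 0.05 by DESeq2, beside 1.06% of all genes. These were Myh11, Acta2 and Tagln. The other 2, Rgs5 and Cspg4, stood above 0 there at 0.0060 and 0.20, and the list median was -0.29. In brown fat 0 of the 5 had such a p and 4 were above 0, with a median of 0.13. All 5 Schwann cell markers were below 0 in each tissue, with medians of -0.20 in quadriceps and -0.14 in brown fat. The summed mean counts were 3238 for mural markers and 1338 for Schwann markers in quadriceps, and 3383 and 3429 in brown fat. Markers of endothelium, macrophages and fibroblasts had medians between -0.02 and 0.08 in both tissues, and the brown adipocyte markers 0.06 in quadriceps and 0.10 in brown fat. The 3 satellite cell markers had medians of 0.09 and 0.02, with Myod1 at 0.61 in quadriceps in the authors' deposited table. The part of any cell type in the values of the 9 genes was not tested. The tissue labels fitted the markers, with a mean normalized count for Ucp1 of 47561 in brown fat and 6.70 in quadriceps. Muscle fibre markers had a summed mean of 95024 in brown fat, beside 294242 for the brown adipocyte markers, and their log2 fold changes there lay between -0.02 and -0.0023.

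Features other than the fold changes and p-values were then compared. Members were chosen also by function, and retained introns of CLK transcripts were known before, so those counts may not be independent of the choice. Clk1 and Clk4 each have 7 annotated transcripts that keep an intron, out of 13 and 14, whereas 1.90% of 16160 protein-coding genes in the tables have at least 7. Nxf1 has 3 such transcripts, Luc7l3 has 2, Rsrp1 has 1, and Pnisr and Nxt1 have 0, so that 5 of the 7 coding members have at least 1, beside 52.2% of protein-coding genes. Which of these transcripts gave the counted reads is not known. The longest Clk1 and Clk4 transcripts had a GC content of 39.2% and 38.8%, beside a median of 49.7% over 18453 genes, and Luc7l3, Malat1 and Pnisr followed with 41.6%, 42.5% and 43.9%. Nxt1 and Nxf1, at 53.2% and 51.2%, were the only members above the median. Members shared at most 0.831% of their stretches of 75 bases with transcripts of other genes. Clk4 overlaps the coding gene BC049762 on the opposite strand and Malat1 an unclassified gene, and whether the counting used strand is not given in the sources used here. On the same strand, genes annotated as miscellaneous RNA overlap Neat1 (Gm27533, Gm27505 and Gm28006), Malat1 (Gm27694) and Clk4 (Gm25082).

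Promoters of 6 members were present in the RefSeq table of GRCm38.p6, spanning 250 bases before to 50 bases after the start. The motif TGACG, which belongs to the cAMP response element, was found on either strand in those of Malat1, Rsrp1 and Clk4, and in 20.8% of all 32851 promoters of the same length. These 3 are printed because they hold it. Capitals mark TGACG or its complement CGTCA.
Malat1 (chr19:5802623-5802922, minus strand): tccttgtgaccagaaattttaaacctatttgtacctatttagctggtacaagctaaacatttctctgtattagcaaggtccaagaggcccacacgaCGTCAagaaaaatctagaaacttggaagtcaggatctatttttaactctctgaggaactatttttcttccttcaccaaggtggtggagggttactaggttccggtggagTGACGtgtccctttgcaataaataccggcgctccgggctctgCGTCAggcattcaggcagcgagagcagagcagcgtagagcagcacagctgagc
Rsrp1 (chr4:134923375-134923674, plus strand): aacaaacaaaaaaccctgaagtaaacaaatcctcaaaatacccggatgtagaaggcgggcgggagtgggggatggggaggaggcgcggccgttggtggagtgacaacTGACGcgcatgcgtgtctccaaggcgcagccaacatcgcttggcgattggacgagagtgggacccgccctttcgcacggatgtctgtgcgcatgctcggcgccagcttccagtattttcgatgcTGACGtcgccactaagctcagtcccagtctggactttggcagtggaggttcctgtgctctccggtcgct
Clk4 (chr11:51262864-51263163, plus strand): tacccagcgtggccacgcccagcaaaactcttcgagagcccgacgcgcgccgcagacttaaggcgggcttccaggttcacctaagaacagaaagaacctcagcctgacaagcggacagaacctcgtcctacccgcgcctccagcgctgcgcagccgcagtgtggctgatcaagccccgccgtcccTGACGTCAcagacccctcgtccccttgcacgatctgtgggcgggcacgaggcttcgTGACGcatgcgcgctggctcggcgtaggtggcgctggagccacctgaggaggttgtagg
In the Clk4 promoter both strands match at one place and form the palindrome that is the full element. The promoters of Luc7l3, Nxf1 and Nxt1 do not hold these letters in this window. GGGCGG was found on either strand in 5 of the 6 promoters, beside 35.7% of all, CCAAT in 2 beside 37.4%, ACGTG in 2 beside 19.6%, CCGGAA in 2 beside 14.9%, and CACGTG, which contains ACGTG, in 0 beside 7.15%. A match is a string of letters, and no factor's binding was measured.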

How the data were processed

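RNA of quadriceps and brown fat was read from 16 libraries, 4 per genotype and tissue. The submitters' processing notes name STAR 2.5.1b, DESeq2 1.10.1 and build mm9, without roles. Neither the read counter nor the annotation is stated there (not given in the sources used here). Per the file headers, each tissue's table holds a mean normalized count, treated as a signal, made by the authors over 8 libraries. Fold changes, with standard errors, were deposited as log2 values. Their quotient is the Wald statistic, a score that the authors deposited too. A two-sided p-value and a Benjamini-Hochberg adjusted one were deposited beside it, and recomputing all 3 returned the same values to rounding. The design text gives 4 mice per genotype, and whether each mouse gave muscle as well as fat is not stated there.

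The 9 genes and all lists were chosen with earlier results of these data known. Named genes are the members, up to 4 genes per list and tissue of smallest p under 0.05, the CLK, LUC7 and NXT paralogs, the markers, and the 5 genes nearest to Rsrp1. Intervals are 1.96 standard errors. Of the list genes, 6 were found under an older symbol. Exon lengths, found for 17366 of 17539 genes in quadriceps and 17816 of 18000 in brown fat, come from GENCODE M21 on GRCm38, which differs from mm9, so no mm9 coordinate is given. Depth per library was estimated from the genes counted by 1 read in all, whose means reveal the size factors. Adjustment was tested on simulated data. The removal of shrinkage was tried only on values simulated by the formula it inverts, with the larger solution true throughout. The choice of the larger solution was therefore not tested. Python 3.11.15 with pandas 2.3.3 was used.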

Additional observations from a re-analysis of the deposited data

How the results depend on the processing

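No member was called at an adjusted p under 0.1, with adjustment over every gene with a p-value, or over genes whose mean reached 10. By the DESeq2 test 5 members in quadriceps and 3 in brown fat were lower at an unadjusted p under 0.05. Of all genes 1.06% and 1.15% were. These p-values had a part in choosing the members, so nothing is read from the counts. Subtracting the median of genes whose mean reached 10 moved the members' median log2 fold change to -0.28 in quadriceps and -0.15 in brown fat and turned no member's sign. Undoing the shrinkage approximately, with the larger solution, gave medians of -0.33 and -0.20, and members moving by over 1.5 times were Clk1, to -0.44 in quadriceps and -0.09 in brown fat, Nxt1, to 0.13 and -0.20 in those tissues, and Neat1, to -0.43 in brown fat. With the brown fat signs as deposited, the brown fat median was 0.15, with Neat1 at 0.28, Malat1 at 0.13, Rsrp1 at 0.34, Clk1 at 0.059, Clk4 at 0.20, Luc7l3 at 0.15, Pnisr at 0.17, Nxf1 at -0.051 and Nxt1 at 0.12. At an unadjusted p under 0.01, there was 1 list gene in quadriceps, against 4, and 0 in brown fat, against 1, by construction of the stricter threshold. With each level divided by the median level of its tissue, the members' median log2 level ratio of brown fat over quadriceps was 0.12, against 1.00 in ppm, and Clk4 at -0.59 and Luc7l3 at -0.69 turned round. No paired analysis was possible because the tables hold no values per library, and leaving out single replicates could not be run for the same reason. Depth limits Nxt1 most, whose counting error is 12.1% or more for a library at the mean.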
